A study of Mus musculus with 3 samples.

Results

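The genes described here are the nuclear genes for the proteins of the cytosolic ribosome, together with the few genes that share their naming. They were taken by annotation alone: protein-coding genes of GENCODE M21 whose name starts with Rpl or Rps and a number, the stalk genes Rplp0 to Rplp2, and Rpsa, without the Rps6k kinases and without names that mark a pseudogene. The rule found 86 genes among 22028 protein-coding and 55536 annotated genes. Of these, 46 encode proteins of the large subunit and 31 proteins of the small subunit. The other 9 were taken in by name: the paralogs Rpl3l, Rpl7l1, Rpl10l, Rpl22l1, Rpl36al, Rpl39l, Rps27l and Rps27rt, and Rps19bp1, which encodes a binding partner of a ribosomal protein and no ribosomal protein itself.

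RNA bound to chromatin was isolated from primary macrophages grown from the bone marrow of C57BL/6J mice, depleted of ribosomal RNA and sequenced as total RNA. There was 1 condition: cells had received 100 ng/ml Lipid A, a bacterial membrane lipid sensed by Toll-like receptor 4, for 12 h, then 12 h without it, and then 100 ng/ml again for 25 min. The labels number 3 biological replicates but give the same donor for all, so the spread between libraries may be smaller than that between animals. Input RNA was 1 µg for replicate 1, 250 ng for replicate 2 and 500 ng for replicate 3, and no other condition, fraction or time was analysed here.

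A ribosome holds 1 copy of nearly every ribosomal protein, and the cell makes these proteins in matched amounts. Their mRNAs are short, are among the most abundant in the cytoplasm, and carry at their start a run of pyrimidines through which their translation is set by growth signals. Many of the genes hold small nucleolar RNAs (snoRNAs), guides for the modification of ribosomal RNA, inside their introns, and these are released from the intron after splicing. In the chromatin fraction RNA is caught while it is being made or just after, and much of it is not yet fully spliced.

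The libraries held 13502401, 17848798 and 17824176 estimated counts on annotated genes, of which 14758, 20026 and 20018 fell on the 86 ribosomal protein genes. A count of 3, the most that a count of 0 allows, corresponds to 0.222, 0.168 and 0.168 CPM, counts scaled to the library total, in replicates 1 to 3. That limit covers counting error only, as no molecular identifiers are recorded. All 8 macrophage markers examined were detected, with a summed level of 1153 to 1339 TPM, a level corrected for transcript length and scaled to the library. No marker of neutrophils, B cells, dendritic cells, fibroblasts or erythroid cells reached 1 TPM in every library, and of the 4 T cell markers only Cd4 did. Tables from 2 quantification programs were deposited for each library. The first gives genes and transcripts, the second transcripts only, and values are from the first unless the second is named.

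Of the 86 genes, 81 were detected, meaning at least 1 TPM in all 3 libraries, among them all 77 genes for proteins of the 2 subunits. Over all protein-coding genes 44.0% were detected. The median over the 86 genes was 13.3, 16.1 and 16.5 TPM in replicates 1 to 3. On the log2(TPM + 1) scale it was 4.02 ± 0.158 (SD, n = 3), and 4.08 ± 0.127 over the 81 detected ones, against 3.56 ± 0.0293 for the 9689 detected protein-coding genes. In TPM the medians were 15.3 ± 1.73 for all 86 genes and 10.8 ± 0.240 for those 9689. On coding transcripts alone they were closer, 5.91 ± 0.466 TPM for the 86 genes and 5.58 ± 0.145 TPM for those 9689. The 86 include the undetected genes. Among subunit genes, all detected, the coding median was 6.44 ± 0.893 TPM for the 61 with an annotated retained_intron transcript. For the 16 without one it was 7.65 ± 0.138 TPM. Together the 86 genes held 0.650% ± 0.119 (SD, n = 3) of all protein-coding TPM in this fraction. Mean levels of detected genes were below 10 TPM for 18, between 10 and 50 TPM for 60 and above 50 TPM for 3.

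The highest 3 were Rpl10, Rps9 and Rpl3. Rpl10, whose protein is one of the last to join the large subunit, had 110, 136 and 132 TPM in replicates 1 to 3. Rps9, of the small subunit, had 82.8, 124 and 108 TPM. Rpl3, whose protein lies near the peptidyl transferase centre, had 64.8, 94.0 and 82.6 TPM. For all 3 genes replicate 1 was the lowest library. Next came Rps12 (49.6, 42.7 and 51.5 TPM), Rps24 (64.9, 39.9 and 33.8), Rpl41 (33.8, 42.7 and 43.2), Rpl5 (35.1, 41.0 and 42.0) and Rpl9 (30.2, 40.04 and 40.7). Rps24 was highest in replicate 1 and thereby went the other way. In the second quantification Rpl10 averaged 89.4 TPM and Rps9 116.8 TPM, so that their order turned, and Rps12 averaged 26.3 TPM.

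**Figure D1:**
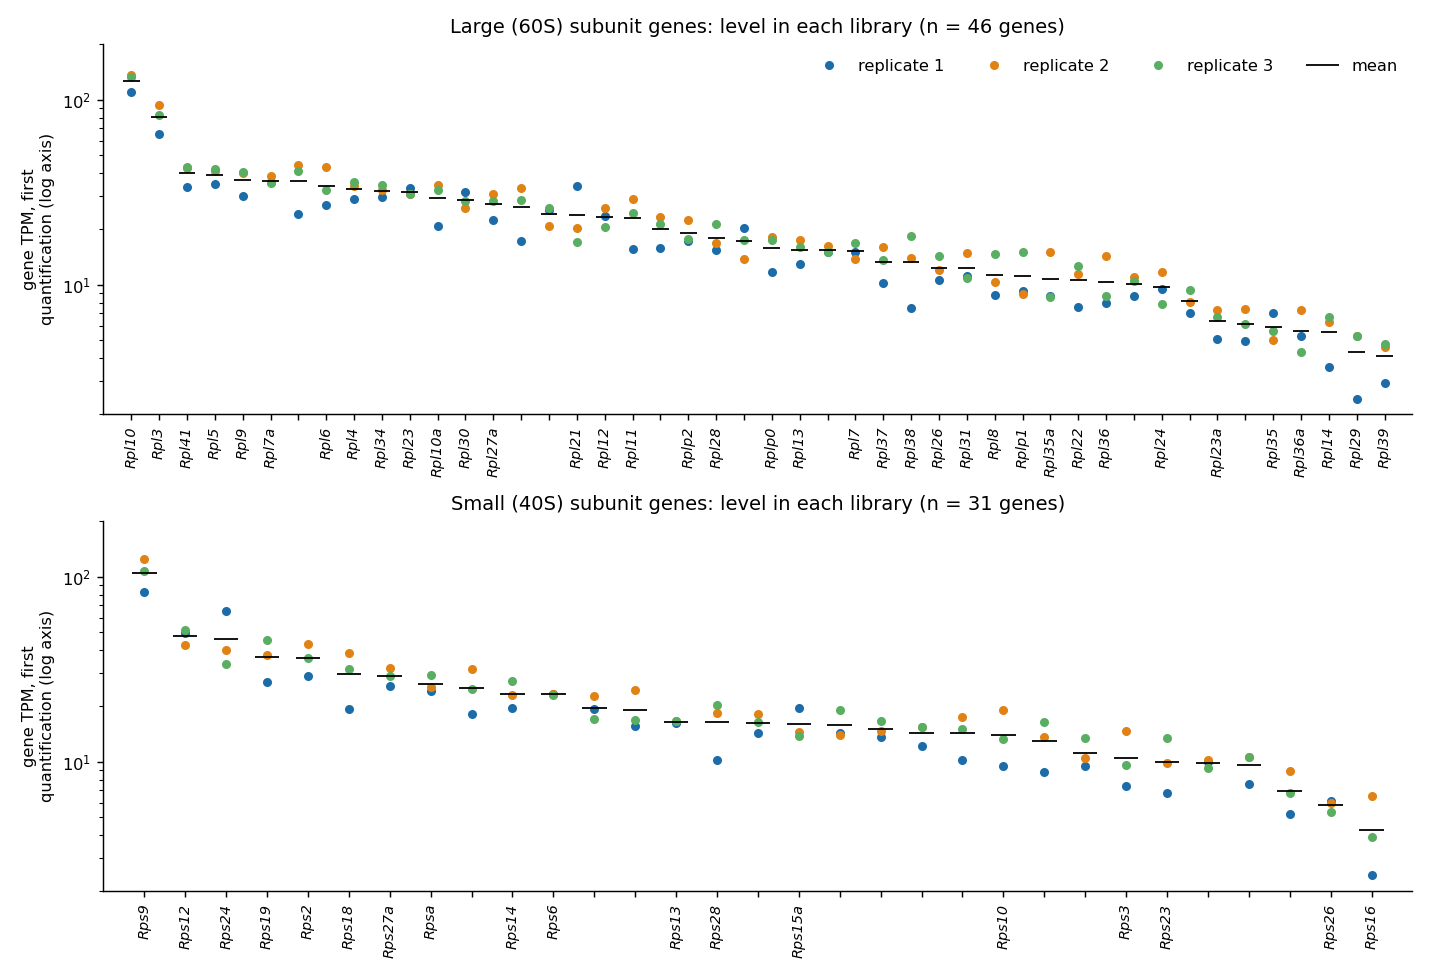
Gene TPM in each library (log axis) for the 46 large-subunit genes, above, and the 31 small-subunit genes, below, ordered by mean; points are libraries and bars are means over 3, and genes described in the text are labelled. Rpl10 and Rps9 lead their subunits at means of 126 and 105 TPM, and in most genes the point of replicate 1 is the lowest.

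At the low end of the subunit genes stood Rpl39, a small protein of the exit tunnel, with 2.94, 4.62 and 4.78 TPM. Rps16 had 2.45, 6.49 and 3.90 TPM, Rpl29 had 2.41, 5.29 and 5.25 TPM, and Rpl14 had 3.57, 6.28 and 6.68 TPM. Between the highest and the lowest subunit gene mean TPM differed 30.7-fold. These low levels rest on few reads: Rpl39 had 13, 21 and 23 counts and Rps16 had 17, 46 and 28. Rpl39 averaged 4.11 TPM in the first quantification and 17.6 TPM in the second, Rps16 4.28 and 8.98 TPM, and Rpl29 4.32 and 9.52 TPM.

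Genes whose proteins work side by side differed in level, and some of these orders depended on the quantification. The stalk of the large subunit, which recruits translation factors, is built from Rplp0, Rplp1 and Rplp2 on a base that includes Rpl12. Rplp0 averaged 15.7 ± 3.53 TPM, Rplp1 11.1 ± 3.45, Rplp2 19.1 ± 2.73 and Rpl12 23.3 ± 2.78 (SD, n = 3). Rplp1, present in the ribosome as a partner of Rplp2, had 9.24, 8.91 and 15.1 TPM against 17.3, 22.2 and 17.7 TPM of Rplp2, and the libraries of the 2 genes did not overlap. Rpl5 and Rpl11 bind 5S ribosomal RNA and, when ribosome assembly fails, the p53 regulator Mdm2. Rpl5 averaged 39.4 ± 3.71 TPM and Rpl11 23.0 ± 6.86 TPM. In the second quantification both orders turned, with 34.55 ± 2.84 TPM for Rpl5 and 39.99 ± 7.24 TPM for Rpl11, whose libraries overlapped, and 13.1 ± 2.04 TPM for Rpl12 and 25.8 ± 1.76 TPM for Rplp2. All 8 genes listed for the exit tunnel were detected, at a median of 12.1 TPM, and so were all 4 listed for the mRNA path of the small subunit (Rps2, Rps3, Rps23 and Rps26), at 10.3 TPM.

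Of the 9 genes taken in by name, 4 were detected. Rpl7l1, which acts in ribosome assembly, averaged 8.51 ± 1.63 TPM, Rpl22l1 7.41 ± 1.71 and Rpl36al 4.89 ± 0.448. Rps27l, a p53 target in other cells, averaged 2.74 ± 0.985 TPM from 8, 13 and 16 counts, and 9.46 ± 2.00 TPM in the second quantification. Rps19bp1 missed the limit in replicate 1, with 0.59, 1.39 and 2.24 TPM. Rpl3l, known from striated muscle, Rpl10l and Rpl39l, known from testis, and Rps27rt were listed at 0 in all 3 libraries.

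Large-subunit and small-subunit genes had like medians. On the log2(TPM + 1) scale the large subunit stood at 4.13 ± 0.102 and the small subunit at 4.11 ± 0.162 (SD, n = 3). The difference within a library, large minus small, was 0.08, −0.08 and 0.06, a mean of 0.02 ± 0.086, and changed sign between libraries. The 86 genes exceeded the 78 nuclear genes for the mitochondrial ribosome, Mrpl and Mrps, in every library. Medians were 4.02 ± 0.158 for the ribosomal protein genes and 2.27 ± 0.0504 for the mitochondrial ones, and the difference was 1.63, 1.78 and 1.86. With 3 libraries a two-sided exact sign-flip test cannot go below a p of 0.25, so such differences are given with their spread and no p. The difference kept its sign but shrank to 1.27 ± 0.0972 when protein_coding transcripts alone were summed.

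Other genes of protein synthesis serve as a scale. Elongation factors and other genes of the same pyrimidine-tract mRNA class were all detected (17 of 17), with a median of 21.5 TPM. Eef1a1, which delivers aminoacyl-tRNA, reached 236 ± 17.9 TPM and Pabpc1, the cytoplasmic poly(A)-binding protein, 95.2 ± 11.5. Of 23 genes for ribosome assembly 21 were detected (median 9.65 TPM), led by nucleolin, Ncl, at 41.7 ± 3.77. Of 11 genes for RNA polymerase I and its factors 10 were detected (median 7.12 TPM), led by Taf1d at 112 ± 20.1. Rack1 and Fau encode ribosomal proteins but fall outside the naming rule, and their levels were 37.4 ± 11.1 and 22.5 ± 3.52 TPM. Regulators of this mRNA class numbered 8 detected of 9, with Rptor, a subunit of the mTORC1 kinase complex, at 43.3 ± 9.83 TPM.

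Replicate 1 held less RNA of these genes than the other libraries. The lowest TPM fell in replicate 1 for 57 of the 81 detected genes, where 34.1% of all detected protein-coding genes had it. In CPM with trimmed-mean scaling, 13 of 81 ribosomal protein genes lay above their own mean over libraries in replicate 1, against 45.3% of protein-coding genes. In replicate 2 it was 57 of 81 against 52.3%, and in replicate 3 56 of 81 against 56.3%. The median deviation of the 81 genes was −0.17, 0.08 and 0.09 on the log2 scale, and that of protein-coding genes −0.03, 0.01 and 0.02. Replicate 1 is also the library with the most input RNA and the fewest counts. Protein-coding genes held 29.8% of its TPM, against 26.4% and 25.4% in replicates 2 and 3, and the part of these differences in the result was not tested.

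The biological coefficient of variation, the relative spread between libraries beyond counting noise as edgeR estimates it, had a median of 0.207 over the 81 genes. It was 0.203 over all 14193 genes fitted, 0.197 over the protein-coding ones among them and 0.215 over 74 mitochondrial ribosomal protein genes. The highest were Rpl29 (0.299), Rps16 (0.291), Rpl38 (0.270), Rpl36a (0.268) and Rps10 (0.268). With 3 libraries the estimates of single genes are drawn strongly towards the trend over all genes. Without that sharing the median was 0.146 for the ribosomal protein genes, against 0.136 over all genes fitted. It was then 0.130 over the protein-coding genes and 0.128 over the mitochondrial ribosomal protein genes.

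In this fraction most RNA of the ribosomal protein genes was assigned to transcripts that the annotation does not call coding. Of their TPM, 49.3%, 53.8% and 47.5% in replicates 1 to 3 lay in transcripts annotated as retained_intron, against 38.1%, 38.4% and 35.4% for all protein-coding genes. The second quantification gave 45.9% ± 1.60 (SD, n = 3) for the ribosomal protein genes and 33.7% ± 0.630 for all protein-coding genes. Coding transcripts held 37.6% ± 3.30 of the ribosomal protein genes' TPM, processed_transcript ones, a class with no open reading frame assigned, 10.4% ± 0.427, and targets of nonsense-mediated decay 1.87% ± 0.508. The tables place intronic reads only on annotated transcripts. An intron that stays in the RNA and one still to be spliced cannot be told apart here.

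**Figure D2:**
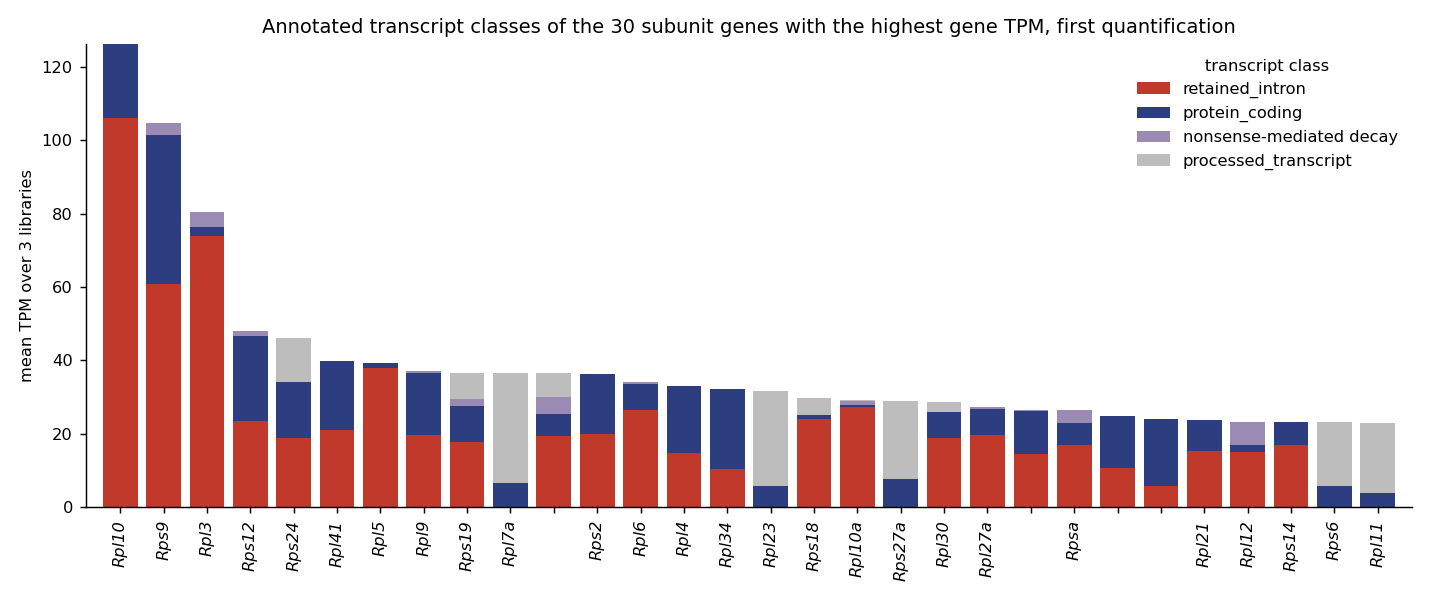
Mean TPM over 3 libraries by annotated transcript class, as stacked bars, for the 30 subunit genes with the highest gene TPM. Retained_intron transcripts make up most of the bars of Rpl10, Rpl3 and Rpl5, and processed_transcript ones most of those of Rpl7a, Rpl23 and Rps27a.

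Ranked by coding transcripts alone, the order of the genes was another. Rps9 led with 40.7 ± 8.53 coding TPM, followed by Rps12 with 23.0 ± 4.80, Rpl34 with 21.7 ± 5.29 and Rpl10 with 20.1 ± 2.18. Rpl3, the third by gene TPM, ranked 65 of 86 with 2.22 ± 1.33 coding TPM, and Rpl5, the seventh by gene TPM, ranked 72 with 1.55 ± 0.851. Conversely, Rpl38 ranked 51 by gene TPM and 16 by coding TPM. It has no retained_intron and no processed_transcript one annotated, so its place in the coding ranking depends on the annotation. Over the 81 detected genes, Spearman's rho between gene and coding TPM was 0.507, a description over genes that share the libraries.

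For each gene a retained-intron share, which is the TPM of its retained_intron transcripts as a percent of that of all its transcripts, was computed for genes with both coding and retained_intron transcripts and at least 5 TPM in every library. Of the 86 genes, 65 have such a transcript and 59 passed; 4667 other protein-coding genes passed. The median share was 52.0%, 59.2% and 50.9% in replicates 1 to 3 for the ribosomal protein genes and 46.8%, 47.6% and 43.1% for the other genes. The difference was 8.19 ± 3.21 percentage points (SD, n = 3), positive in 3 of 3 libraries, and 7.25 ± 1.15 in the second quantification, also positive in 3 of 3. It was 25.8 ± 5.54 points when counts replaced TPM as weights, so its size depends on how transcript length enters. Without transcripts that hold a snoRNA, left out of all genes, it was 2.62 ± 2.94 points, with −0.59 in the lowest library. The 22 mitochondrial ribosomal protein genes with a share had a median of 47.9% ± 3.07, below the cytosolic set in 3 of 3 libraries, but 53.0% ± 1.71 in the second quantification, above it in 3 of 3.

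Of the 59 genes, 25 (42.4%) had a share of at least 50% in every library, where all genes with a share gave 33.4%. In the second quantification it was 28 (47.5%) against 34.9%, and in all libraries of both quantifications 20 (33.9%) against 26.0%. A retained_intron transcript was the most abundant one in every library for 24 of 59, against 28.5%. For 15 of 59 (25.4%), against 16.0%, the deposited lower bound of a retained_intron transcript lay above the upper bounds of all coding transcripts in every library. No ribosomal protein gene had a share of 0 in every library (0 of 59), against 0.296% of all genes with a share. Mean shares ran from 12.6% to 98.0%, with 8 genes below 25%, 16 between 25% and 50%, 25 between 50% and 75% and 10 above 75%. The rank order was close between libraries (Spearman's rho 0.866 to 0.936 for the 3 pairs of libraries) and less so between quantifications (0.749), over 59 genes.

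**Figure D3:**
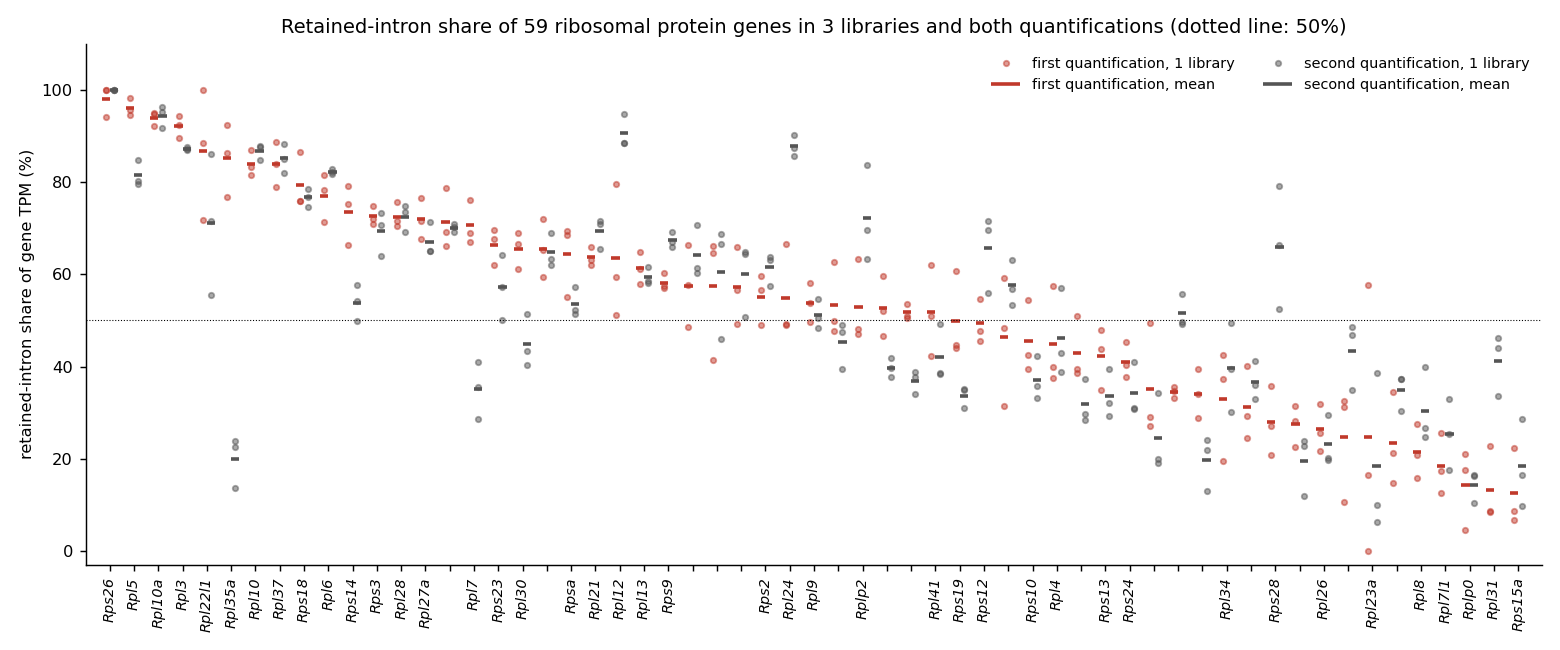
Retained-intron share (%) of the 59 ribosomal protein genes, ordered by the mean of the first quantification; points are the 3 libraries and bars means, in both quantifications. Rps26, Rpl5, Rpl10a and Rpl3 lie near the top in both, while Rpl35a, Rps28 and Rpl24 differ widely between the quantifications.

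The 20 genes past 50% in every library of both quantifications included Rpl3, Rpl5, Rpl6, Rpl10, Rpl10a, Rpl12, Rpl13, Rpl21, Rpl22l1, Rpl27a, Rpl28, Rpl37, Rps3, Rps9, Rps18, Rps23, Rps26 and Rpsa. Rpl5 had shares of 98.2%, 95.8% and 94.6% in replicates 1 to 3, and 84.9%, 79.5% and 80.2% in the second quantification. Rpl10a had 94.8%, 92.2% and 95.1% in the first and averaged 94.4% ± 2.39 in the second. Rpl3 had 94.3%, 92.4% and 89.6%, and 87.2% ± 0.330 in the second. Rpl10 had 81.6%, 87.0% and 83.2%, and 86.7% ± 1.67 in the second. All of these stood high in each library.

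Rps26, whose protein lines the mRNA exit path, had the highest share, 100%, 94.1% and 100%, and 100% in every library of the second quantification, at only 5.80 ± 0.416 gene TPM. Its counts were 49, 48 and 46 per library, so that the near absence of coding transcripts rests on few reads. The 1 pseudogene named after it had 17.05, 15.93 and 16.23 counts, or 35.1%, 32.9% and 34.9% of those of the gene. Whether reads of the gene were assigned to that copy was not tested. Rpl22l1, a paralog of Rpl22, had 100%, 71.7% and 88.6% from 87, 105 and 97 counts, with no TPM on coding transcripts. Rpl37 averaged 83.9% ± 4.86, Rps18 79.5% ± 6.16 and Rpl6 77.1% ± 5.26 (SD, n = 3). Rpl35a averaged 85.3% ± 7.85.

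The sequences below are introns held whole by retained_intron transcripts of these genes, read from the GENCODE M21 transcripts on the gene's strand. Each is the whole intron held at the highest TPM in its gene, and they are shown for genes among those with the highest shares. Capitals mark the splice-site dinucleotides at both ends. In mm10, they are intron 4 of 7 of Rpl5 at chr5:107903404-107903665 (plus strand, 262 bases), intron 2 of 5 of Rpl10 at chrX:74271719-74271799 (plus, 81 bases), intron 2 of 3 of Rpl22l1 at chr3:28806593-28806736 (plus, 144 bases), intron 3 of 4 of Rps18 at chr17:33952313-33952402 (minus, 90 bases) and intron 2 of 6 of Rpl6 at chr5:121205664-121205753 (plus, 90 bases). Intron 3 of 9 of Rpl3 at chr15:80081032-80081614 (minus, 583 bases) and intron 3 of 5 of Rpl10a at chr17:28329048-28329373 (plus, 326 bases) are given by their first and last 30 bases.
Rpl5: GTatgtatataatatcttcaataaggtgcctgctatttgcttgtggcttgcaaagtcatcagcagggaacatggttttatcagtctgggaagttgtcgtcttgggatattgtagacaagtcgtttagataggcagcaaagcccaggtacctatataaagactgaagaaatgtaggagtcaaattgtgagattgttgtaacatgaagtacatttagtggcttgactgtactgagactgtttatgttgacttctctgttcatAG
Rpl10: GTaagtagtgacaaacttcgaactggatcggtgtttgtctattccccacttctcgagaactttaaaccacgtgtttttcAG
Rpl22l1: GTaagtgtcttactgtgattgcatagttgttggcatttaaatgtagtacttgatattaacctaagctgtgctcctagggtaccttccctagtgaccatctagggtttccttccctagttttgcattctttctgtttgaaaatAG
Rps18: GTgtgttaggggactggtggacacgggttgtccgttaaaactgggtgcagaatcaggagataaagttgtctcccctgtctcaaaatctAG
Rpl6: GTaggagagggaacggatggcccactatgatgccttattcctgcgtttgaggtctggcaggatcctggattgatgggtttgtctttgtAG
Rpl3, first bases: GTaagaggctcttgggttcccttagaagta
Rpl3, last bases: ccctcccccaactgtgctctgctcctgaAG
Rpl10a, first bases: GTtggcaccgctctaaccccacccagccct
Rpl10a, last bases: ctgttctgttttctcccctcccaaacgcAG

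Intron 2 of Rpl10 was held at 38.6, 58.0 and 53.1 TPM in replicates 1 to 3, and intron 3 of Rpl3 at 30.8, 45.5 and 41.5 TPM, more than any other intron of the 59 genes. Intron 3 of Rpl10a was held at 10.4, 23.1 and 22.2 TPM and intron 3 of Rps18 at 4.28, 9.51 and 6.25 TPM, both lowest in replicate 1. Intron 2 of Rpl22l1 was held at 5.65, 6.50 and 6.67 TPM, intron 2 of Rpl6 at 3.43, 4.51 and 3.31 TPM, and intron 4 of Rpl5 at 3.26, 3.87 and 2.87 TPM. Rpl5 is thus a gene of high share whose retained_intron transcripts hold a whole intron only in small part: its most abundant one, Rpl5-205, had 14.1, 15.2 and 15.7 TPM and held none whole.

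That held more widely. The 59 genes have 165 retained_intron transcripts, of which 83 hold at least 1 whole intron of a coding transcript (48 hold 1 and 35 several) and 82 hold none. Of the 165, 3 have no base outside the exons of coding transcripts. The 83 carried 55.9% ± 0.818 of the retained-intron TPM and 44.4% ± 0.998 in the second quantification (SD, n = 3). They belong to 40 of the 59 genes. When only these counted as retained, the median share was 21.7% ± 3.25 for the ribosomal protein genes and 0% for the other protein-coding genes, and 8 of 59 ribosomal protein genes passed 50% in every library, where all genes with a share gave 6.05%. How many of the other genes have a transcript that holds a whole intron was not counted. The part of annotation and intron length in this contrast was not tested. Of the 265 introns of the 59 longest coding transcripts, 87 (32.8%) were held by an annotated retained_intron transcript, whatever its TPM. Those were 16 of 59 first introns, 17 of 59 last introns and 54 of 147 inner ones. Held introns were shorter, with a median of 262 bases against 440.5 for the others, and all 87 began with GT and ended with AG. These counts and lengths describe the annotation of the 59 genes and not the level of retention in these libraries.

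**Figure D4:**
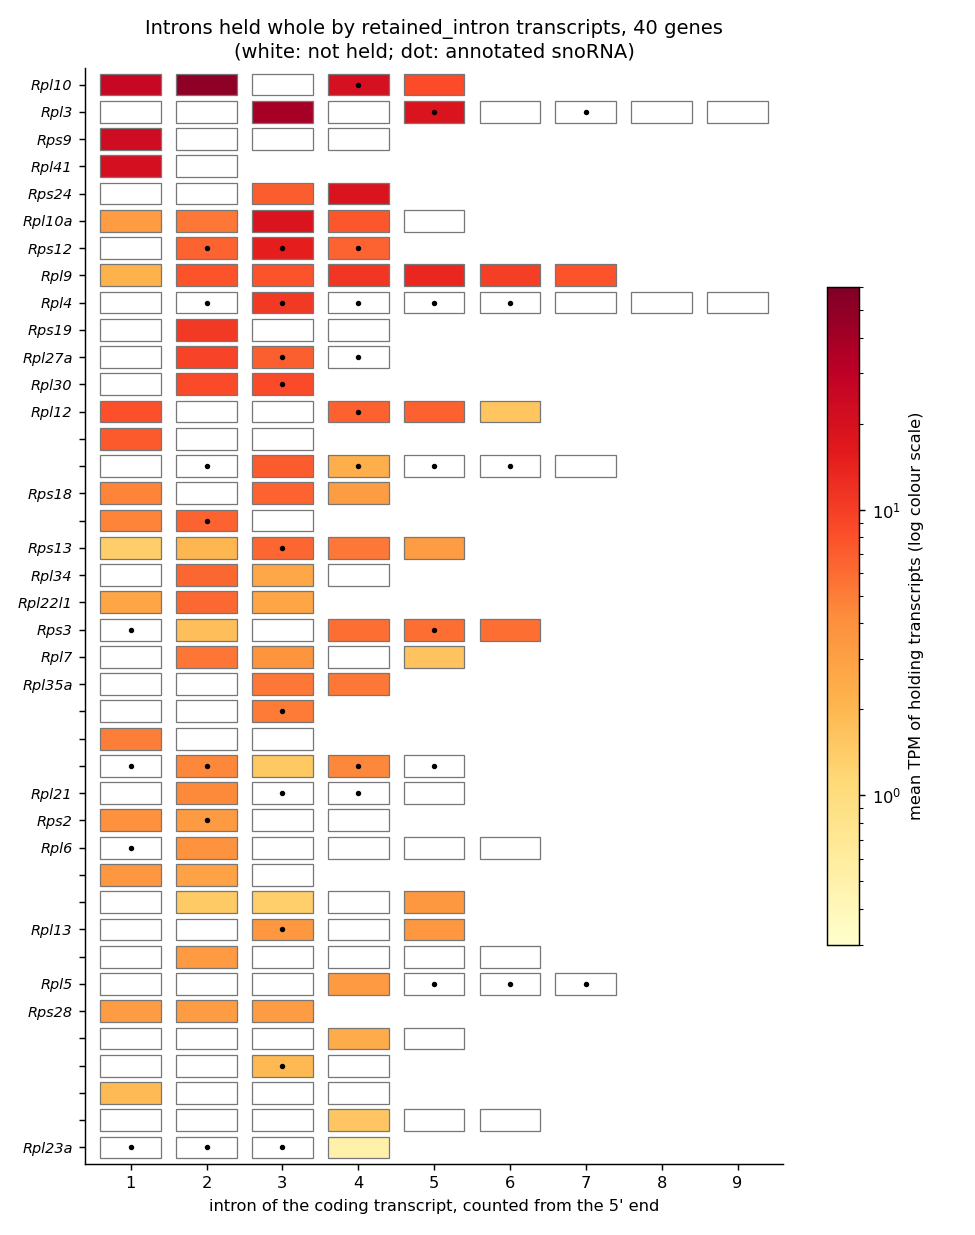
Map of the introns of the coding transcript, numbered from the 5′ end, for the 40 genes with a whole intron held; colour gives the mean TPM of the retained_intron transcripts that hold it (log colour scale), white boxes are introns not held, and dots mark annotated snoRNAs. The most held intron was an inner one in 27 of the 40 genes, the first in 9 and the last in 4.

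The lowest mean shares belonged to Rps15a (6.73%, 22.4% and 8.64%), Rpl31 (22.8%, 8.45% and 8.56%), Rplp0 (17.6%, 21.003% and 4.43%), Rpl7l1 (12.5%, 17.3% and 25.6%) and Rpl8 (27.5%, 20.9% and 15.8%). These 5 genes have 1 annotated retained_intron transcript each. Over the 59 genes the share went with the number of annotated retained_intron transcripts (Spearman's rho 0.503) more than with gene TPM (0.205), as a description. The second quantification gave 14.4% ± 3.43 for Rplp0 and 18.3% ± 9.57 for Rps15a, but 41.3% ± 6.63 for Rpl31.

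By role, the 4 genes of the mRNA path had a median share of 69.5% ± 2.64 and the 5 exit-tunnel genes with a share 26.5% ± 8.77 (SD, n = 3). The second quantification gave 65.5% ± 2.35 and 37.4% ± 2.26 for these lists. Both lists are short, and the SDs are over libraries and not over genes. Of the mRNA path, Rps26 rests on few reads, Rps2 is limited by pseudogene copies, and Rps3 fell to 37.0% without its transcript that holds a snoRNA. Of the exit tunnel, Rpl23a had 0%, 57.6% and 16.4% in replicates 1 to 3. Large-subunit genes (31 with a share) had a median of 55.9% ± 5.35 and small-subunit genes (26) 52.4% ± 3.52, but in the second quantification it was 47.2% ± 3.39 for the large and 55.3% ± 2.13 for the small subunit. The order of the subunits thus depends on the quantification. Rpl3, Rpl12 and Rps13, for which human studies describe control of their own splicing, had mean shares of 92.1%, 63.5% and 42.2%. Of the 81 detected genes, 15 had TPM on targets of nonsense-mediated decay, where 26.6% of all detected protein-coding genes had it. Only 20 of the 86 genes have such a target annotated. Among the 9689 detected protein-coding genes 3106 have one annotated, and 2577 had TPM on it. The contrast thus depends on the annotation. Rpl12 and Rps13 held the highest portions, 28.2% ± 11.9 and 25.5% ± 5.30. The 8 genes with a share that are mutated in human Diamond-Blackfan anaemia, an inherited failure of red cell production, had a median of 55.2% ± 7.10, and of 36.4% ± 4.87 in the second quantification.

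Other lists of protein synthesis were spread on both sides. Among pyrimidine-tract genes outside the ribosome 12 had a share, with a median of 51.4% ± 1.96. The 12 ribosome assembly genes with a share stood at 59.4% ± 4.81 and the 6 RNA polymerase I genes at 28.4% ± 7.93. Rack1 and Fau had shares of 22.2% ± 4.12 and 37.2% ± 16.1, neither past 50% in every library.

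For some genes the quantifications gave different shares. The libraries of the first lay wholly above those of the second for 11 of 59 genes, against 25.9% of all genes with a share, and wholly below for 10 of 59, against 20.8%. The median absolute difference of mean shares was 7.99 percentage points. The median SD of a share between libraries was 6.56 points, an unlike measure, as both quantifications were made from the same libraries. Rpl35a had 92.5%, 76.9% and 86.4% in the first and 13.7%, 23.9% and 22.5% in the second. Its gene level was 10.7 TPM in the first and 41.4 TPM in the second, 3.86 times higher in the second. Rpl7 averaged 70.7% ± 4.77 and 35.0% ± 6.21, Rpl30 65.6% ± 4.11 and 45.0% ± 5.75, Rps14 73.6% ± 6.55 and 53.8% ± 3.92, and Rps19 49.8% ± 9.46 and 33.7% ± 2.27, the first quantification before the second. The other way lay Rps28 with 27.9% ± 7.56 and 66.0% ± 13.4, Rpl24 with 55.0% ± 10.1 and 87.8% ± 2.34, Rpl31 with 13.3% ± 8.25 and 41.3% ± 6.63, Rpl12 with 63.5% ± 14.6 and 90.6% ± 3.71, and Rplp2 with 52.8% ± 9.05 and 72.2% ± 10.5. For these 10 genes no share can be given that holds for both.

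Ribosomal protein genes that host snoRNAs had a higher median share than those that do not. An annotated snoRNA gene lies inside 30 of the 86 genes on the same strand, 58 snoRNA genes in all. The 23 hosts with a share had medians of 57.9%, 64.7% and 61.3% in replicates 1 to 3, and the 36 other ribosomal protein genes 45.4%, 49.4% and 45.8%. The difference was 14.4 ± 1.67 percentage points, positive in 3 of 3 libraries, and 21.2 ± 7.55 in the second quantification, also in 3 of 3. A share of at least 50% in every library was seen in 14 of 23 hosts (60.9%) and 11 of 36 others (30.6%), where all genes with a share gave 33.4%.

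The difference was smaller when transcripts that contain a snoRNA were left out. Among the 23 hosts 20 have a retained_intron transcript that holds a snoRNA, and these 27 transcripts carried 18.3% ± 0.869 of the retained-intron TPM of the 59 genes. Leaving them out can only lower the hosts' share, as the other ribosomal protein genes have none to lose. Without them the hosts' median share was 48.8% ± 4.51, and the difference from the other ribosomal protein genes 0.61, 4.57 and 0.44 points, a mean of 1.88 ± 2.34. In the second quantification 7.26 ± 5.11 points were left, positive in 3 of 3 libraries. The 20 hosts with such a transcript had a median share of 61.2% ± 3.46 and the 3 without one 64.4% ± 8.02, and 66.3% ± 2.44 and 53.7% ± 3.22 in the second quantification (SD, n = 3). Reads of a snoRNA and of the transcript around it can be assigned to either, and their part in the shares was not tested. Rps12 fell to 13.0% ± 6.39 without its 3 snoRNA-holding transcripts, against 49.4% ± 4.70 with them, and Rps3 to 37.0% ± 6.92, against 72.6% ± 1.98. Rpl5, Rpl3 and Rpl10 stayed at 94.7% ± 2.53, 89.8% ± 2.85 and 80.8% ± 3.17 without theirs.

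**Figure D5:**
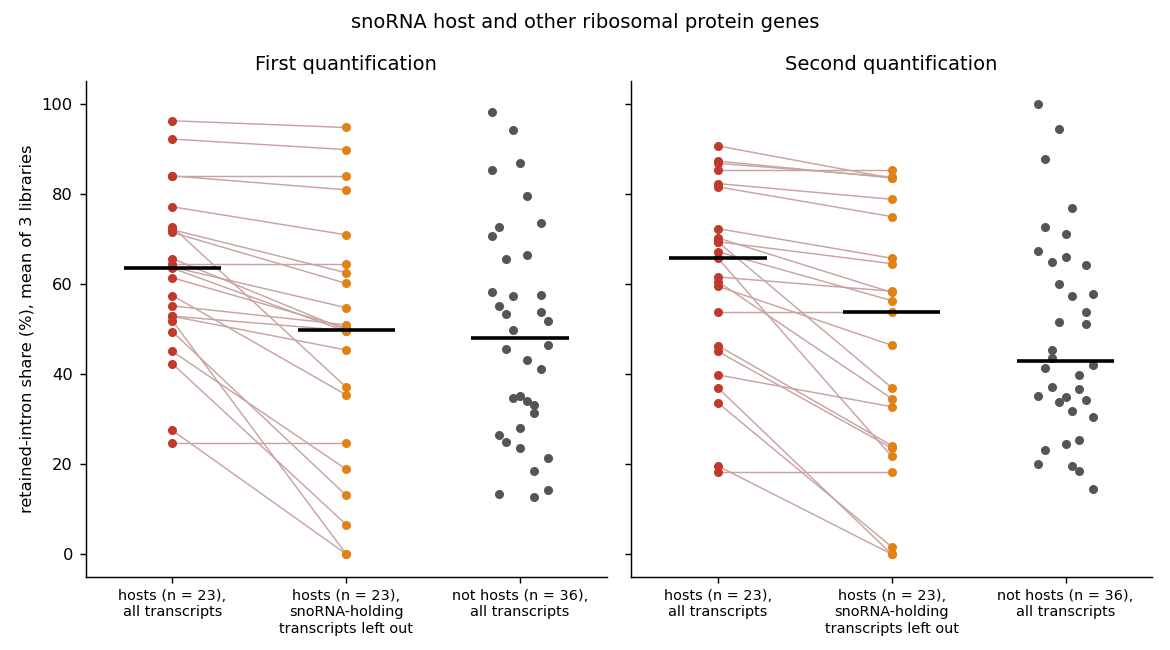
Mean retained-intron share (%) of the 23 snoRNA hosts with all transcripts, the same genes (lines) without snoRNA-holding transcripts, and the 36 ribosomal protein genes that host none; points are genes and bars medians over genes. In the first quantification the hosts lie at the level of the other genes once those transcripts are left out, and in the second they remain somewhat above.

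Intron 3 of Rps12 and intron 3 of Rpl4 show such a case and were the snoRNA-holding introns with the highest retained-intron TPM for which the whole sequence is short enough to print. Rps12 intron 3 of 4, at chr10:23785678-23785901 (minus strand, 224 bases), was held at 13.1, 17.5 and 14.8 TPM and contains Snord100. Rpl4 intron 3 of 9, at chr9:64175301-64175583 (plus strand, 283 bases), was held at 9.14, 13.3 and 9.87 TPM and contains Snord16a. Capitals mark the ends of the intron and the snoRNA gene, 74 bases long in Rps12 and 99 in Rpl4, both of the class that guides methylation of ribosomal RNA.
Rps12: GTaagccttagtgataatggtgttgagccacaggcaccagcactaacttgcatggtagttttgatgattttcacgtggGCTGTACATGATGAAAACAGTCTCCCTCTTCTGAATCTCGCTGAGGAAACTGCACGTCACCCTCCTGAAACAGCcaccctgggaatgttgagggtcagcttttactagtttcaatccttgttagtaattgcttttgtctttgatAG
Rpl4: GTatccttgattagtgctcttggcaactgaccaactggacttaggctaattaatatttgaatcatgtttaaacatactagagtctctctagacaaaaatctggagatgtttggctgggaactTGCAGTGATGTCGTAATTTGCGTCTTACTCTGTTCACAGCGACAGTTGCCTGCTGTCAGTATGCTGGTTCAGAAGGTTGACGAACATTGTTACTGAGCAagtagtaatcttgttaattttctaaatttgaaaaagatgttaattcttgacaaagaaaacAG

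Of the 58 snoRNA genes themselves, 41 were listed at 0 in all 3 libraries and 9 reached 1 TPM in all. All 36 of at most 104 bases were listed at 0, and the 17 above 0 in some library have 125 bases or more, so a listed 0 is no measure of the level of the short ones. Snord15b, in an intron of Rps3, had 2450, 1220 and 1722 counts, while its host had 226, 505 and 373. By annotation alone, whatever the TPM, introns with a snoRNA were held in 19 of 45 cases (42.2%). For introns without one it was 68 of 220 (30.9%).

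Of the 77 subunit genes, 16 have no retained_intron transcript in the annotation and so no share. For 7 of these 16, Rpl11, Rpl23, Rpl7a, Rps6, Rps27a, Rpl35 and Rpl22, processed_transcript ones held at least 50% of the TPM in every library, against 8.2% of the 3453 detected protein-coding genes without a retained_intron transcript. Only 8 of the 16 have a processed_transcript one annotated, and the 3453 genes were not limited to genes with one. Rpl11 had 85.0%, 89.2% and 74.3%, Rpl23 80.5%, 87.3% and 77.7%, and Rpl7a, which hosts 3 snoRNAs, 77.8%, 84.1% and 83.3%. Of the 32 processed_transcript ones of these genes 12 hold a whole coding intron. Those 12 belong to Rpl11, Rpl23, Rpl7a, Rps6 and Rps27a, so for these genes intron-holding RNA is counted under another class name. The median level of the 61 subunit genes with a retained_intron transcript was 4.16 ± 0.110 and that of the 16 without 3.78 ± 0.359 on the log2(TPM + 1) scale.

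Near-identical copies limit single values. The annotation holds 300 pseudogenes named after these genes, of which 27 were detected, and their counts amounted to 4.95%, 4.68% and 3.92% of the counts of the ribosomal protein genes. Rps2 was touched most, with 210, 281 and 199 counts on 11 pseudogenes, against 209, 378 and 359 on the gene. The levels of Rps2, Rpl36, Rpl26 and Rpl23a, among others, are uncertain for this reason. A gene on the opposite strand overlaps 24 of the 86 and one on the same strand 6, and the strand setting of the counting is not given in the sources used here.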

How the data were processed

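Estimated counts and TPM per gene and transcript (first quantification) and estimated counts and TPM per transcript (second quantification) were used as deposited by the authors for each library. Per the file headers the first tables also hold posterior mean TPM and TPM bounds, whose level is not stated. Notes deposited beside the files name mm10 and GENCODE M21; which programs made the tables is not stated there.

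Transcript classes, snoRNAs and coordinates came from GENCODE M21. Levels were medians of log2(TPM + 1) in each library. Retained-intron shares needed both transcript classes and 5 TPM or more for the gene in each library. The reference coding transcript was that with the longest coding sequence. Estimated counts were rounded for edgeR 4.0.16 (R 4.3.3), which was fitted on all annotated genes passing filterByExpr, with trimmed-mean scaling and an intercept only. Rows outside annotated genes made up 1.75%, 0.396% and 0.239% of counts in replicates 1 to 3 and were left out. Python 3.11.15, numpy 2.4.6 and pandas 2.3.3 did the rest, and share and dispersion code was tested on simulated data.

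Named were the 8 highest and 6 lowest detected genes, all undetected ones, the stalk, 5S and paralog lists, the 10 highest and 5 lowest shares, the genes past 50% throughout, the 5 largest differences between quantifications each way, the 5 highest coefficients of variation and the leading genes of other lists. Genes and lists were chosen with earlier results of these data known. Rps2, Rps13, Rpl34, Rpl38 in the coding ranking, Rpl4, the snoRNAs, and the genes singled out by processed_transcript share or pseudogenes were chosen after their values were seen. Alternatives covered the quantification, weights, filters, thresholds, pseudocount, classes counted, scaling and leaving out each library. A few single genes are not reported here by name, but counts and medians include them.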

Additional observations from a re-analysis of the deposited data

How the results depend on the processing

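No paired analysis was possible because all 3 libraries belong to 1 condition. The median level, 4.02, moved with the second quantification to 4.42, with scaling over protein-coding genes alone to 5.84, and with coding transcripts alone to 2.79. The cytosolic minus mitochondrial difference, 1.76, was 1.53, 1.93 and 1.27 in these, and 1.97 with a pseudocount of 0.1. The large minus small difference, 0.02, was −0.094 with coding transcripts alone. The share of ribosomal protein genes, 54.0%, was 59.0% over coding and retained_intron transcripts only, 48.3% without snoRNA-holding transcripts and 21.7% with whole introns only. Its difference from other protein-coding genes, 8.19 points, was 25.8 with counts as weights, 2.62 without snoRNA-holding transcripts and 21.7 with whole introns only. The last value also depends on which genes have such a transcript annotated, which was not compared. The 25 of 59 genes past 50% became 46 at a threshold of 25% (77.97%, against 74.97% of all genes with a share), 8 at one of 75% (13.6% against 5.73%) and 8 with whole introns only (13.6% against 6.05%); without snoRNA-holding transcripts 20 were left (33.9% against 33.2%). The difference of snoRNA hosts, 14.4 points, was 21.2 in the second quantification, 10.3 with counts as weights, 19.0 with posterior mean TPM, 18.003 and 21.8 with gene TPM of at least 1 and 10, and 1.88 without snoRNA-holding transcripts. Leaving out 1 library at a time it ran from 12.3 to 14.4, and the median coefficient of variation, 0.207, from 0.165 without replicate 1 to 0.250 without replicate 3; without sharing between genes that was 0.146. The count of detected genes stayed within 1.5 times of 81 throughout (73 to 82). Of single named values, 15 of 21 levels and 22 of 33 shares moved by more than 1 SD in the second quantification. The settings on whole introns, snoRNA-holding transcripts, coding transcripts and shrinkage, and one on subunit genes alone, were chosen after seeing the data. Depth limits single genes most: Rpl39, Rps16 and Rpl29 rest on under 50 counts in each library. The cause of these shifts was not tested.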

Other observations

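Some values stood outside the comparisons above. Rpl21 went against most ribosomal protein genes, with 34.2, 20.35 and 16.99 TPM in replicates 1 to 3, highest where the other genes were mostly lowest. The retained-intron share was highest in replicate 2 for 32 of 59 ribosomal protein genes and in replicate 3 for 8, against 2094 and 565 of the 4667 other genes. In levels, the 30 hosts had a median of 4.42 ± 0.176 and the 56 other genes 3.81 ± 0.280 on the log2(TPM + 1) scale (SD, n = 3). The difference was 0.99, 0.60 and 0.22 in replicates 1 to 3, positive in 3 of 3 libraries. All 30 hosts were detected, but only 51 of the 56 other genes. On coding transcripts alone the difference was not seen, with medians of 6.00 ± 0.159 TPM for the hosts and 6.21 ± 0.961 TPM for the others.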
